A study of Mus musculus with 12 samples.

Results

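The genes described here are 10 effectors of the integrated stress response: the transcription factors Atf4, Atf5, Atf3 and Ddit3, the intracellular regulators Trib3, Chac1, Nupr1 and Sesn2, and the secreted factors Fgf21 and Gdf15. They were chosen by symbol, and a gene counted as measured when a transcript cluster of the array (the set of probes summarised as 1 value) carried its symbol alone. By that rule 9 of the 10 were measured, each by 1 cluster, out of 21789 clusters that carried exactly 1 symbol and stood for 19938 genes. Gdf15 is not analysed here, because no cluster in the annotation used here carried its symbol.

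Expression was measured on 12 whole-transcript arrays of C2i-Myog, a stable derivative of C2C12 mouse myoblasts with a doxycycline-inducible cDNA for Flag-tagged mouse myogenin (Myog). Every group was held for 48 h in differentiation medium with 1% horse serum, insulin at 10 µg/mL and transferrin at 10 µg/mL. Differentiation is missing from the control label itself, so the 48 h of the controls come from the treatment text shared by all samples. Each group had 3 arrays. Controls had no further agent. The Dox group had 0.2 µg/mL of doxycycline to switch on Myog, the SB group had 10 µM of SB203580, which blocks the kinases p38α and p38β, and the SB+Dox group had both, in each case from the start of differentiation. All groups carry the transgene, and no group received doxycycline without it, so the agent and the induced protein cannot be told apart. The labels do not say whether the line is 1 clone or whether replicates were separate cultures, and p-values therefore reflect the spread among these arrays, which may be technical.

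When cells lack amino acids, accumulate unfolded protein or suffer mitochondrial stress, kinases phosphorylate the initiation factor eIF2α, which slows protein synthesis in general but favours translation of the ATF4 and ATF5 messages. ATF4 then binds composite C/EBP-ATF elements and raises genes for amino acid supply together with the effectors listed here, among them CHOP, the product of Ddit3. The mRNA level of Atf4 is only part of that control, since much of it acts on translation, which arrays do not measure. FGF21 is a hormone that stressed muscle can release.

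The median log2 value of an array was 4.86 to 5.06, and replicates correlated with coefficients of 0.982 to 0.993 across clusters. Myog, the induced gene, had log2 values of 9.66, 10.18 and 9.89 in control, 10.39, 10.3 and 10.4 in Dox, 6.93, 7.96 and 8.21 in SB and 8.1, 8.23 and 8.68 in SB+Dox. It lay lowest in SB, and on the arrays of SB+Dox it stayed below every control array. The change of Myog with doxycycline passed the test neither without the inhibitor (0.46, adjusted p = 0.467 in limma) nor with it (0.64, adjusted p = 0.157), and in the latter case the SB and SB+Dox arrays overlapped. Induction of Myog is therefore what the labels state, and these values did not establish it. All 12 markers of skeletal muscle lay above the median of all values in every group. Their mean ran from 10.04 to 10.39 on control arrays, from 10.19 to 10.42 on Dox arrays, from 8.9 to 9.6 on SB arrays and from 9.87 to 10.14 on SB+Dox arrays. The mean was thus low in the same group as the stress effectors. In SB against control 8 of the 12 were called lower and 1 higher, beside 6.38% of all clusters called. Single markers differed: Myf5 had its highest log2 mean in SB (7.45), and Myod1 (9.25) and Cdh15 (9.55) had their lowest in SB+Dox. The part of the muscle markers in the results below was not tested. The means of the adipocyte, osteoblast, macrophage and endothelial lists lay between 3.67 and 4.39 on every array, below the array medians. The chondrocyte list had 3 of its 5 genes above the median of all values in each group, with a mean of 5.38 to 5.59. In bulk RNA, fewer cells of a kind and less RNA per cell cannot be told apart.

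Members are described below with the sequence around the start of those whose promoter held the ATF4-type element, since ATF4 is known to bind elements of this kind. RefSeq windows (build GRCm38.p6) of 250 bases before to 50 after each start were searched on both strands for TGATGNAA, the core of the C/EBP-ATF response element, for the palindromic cAMP response element TGACGTCA, and for the endoplasmic reticulum stress response element, which is CCAAT and CCACG with 9 bases between them. Windows were found for all 10 genes, 12 windows in all. The first motif was present in 5 of the 10 genes, against 4.51% of the 27025 genes in the table, and the other motifs in 0 of the 10, against 2.03% and 0.137%. Each match was on the strand opposite to the gene, and it stands in capitals below, 5′ to 3′ along the gene.
Atf3 (chr1:191183284-191183583, minus strand): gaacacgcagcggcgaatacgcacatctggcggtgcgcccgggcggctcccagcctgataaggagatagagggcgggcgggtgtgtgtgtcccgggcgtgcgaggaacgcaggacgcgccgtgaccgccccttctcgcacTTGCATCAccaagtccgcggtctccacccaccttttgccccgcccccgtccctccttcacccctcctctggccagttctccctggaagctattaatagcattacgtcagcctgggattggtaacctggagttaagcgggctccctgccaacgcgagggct
Chac1 (chr2:119350992-119351291, plus strand): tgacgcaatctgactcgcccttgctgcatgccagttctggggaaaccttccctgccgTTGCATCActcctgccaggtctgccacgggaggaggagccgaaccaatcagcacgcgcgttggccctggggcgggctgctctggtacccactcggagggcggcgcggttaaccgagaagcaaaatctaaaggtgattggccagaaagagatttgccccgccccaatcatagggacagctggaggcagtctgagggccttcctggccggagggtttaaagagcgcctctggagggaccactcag
Nupr1 (chr7:126625421-126625720, minus strand): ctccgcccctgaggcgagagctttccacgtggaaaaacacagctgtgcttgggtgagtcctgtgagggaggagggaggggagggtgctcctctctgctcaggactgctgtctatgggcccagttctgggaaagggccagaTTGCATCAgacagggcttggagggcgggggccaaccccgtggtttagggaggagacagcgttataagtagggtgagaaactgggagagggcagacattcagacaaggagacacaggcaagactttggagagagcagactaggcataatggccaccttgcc
Fgf21 (chr7:45615441-45615740, minus strand): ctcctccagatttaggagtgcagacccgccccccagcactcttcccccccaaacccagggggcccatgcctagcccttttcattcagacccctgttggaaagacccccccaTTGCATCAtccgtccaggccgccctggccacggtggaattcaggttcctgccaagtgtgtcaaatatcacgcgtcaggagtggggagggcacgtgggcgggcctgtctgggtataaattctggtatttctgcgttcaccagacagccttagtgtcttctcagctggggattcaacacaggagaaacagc
Trib3 (chr2:152344011-152344310, minus strand): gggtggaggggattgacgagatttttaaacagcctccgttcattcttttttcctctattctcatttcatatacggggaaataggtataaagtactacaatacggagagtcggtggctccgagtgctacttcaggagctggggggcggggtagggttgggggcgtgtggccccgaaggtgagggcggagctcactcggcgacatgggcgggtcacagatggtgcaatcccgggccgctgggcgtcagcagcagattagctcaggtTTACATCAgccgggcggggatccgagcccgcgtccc
Atf3, Chac1, Nupr1 and Fgf21 shared the same 8 letters, TTGCATCA, at bases -110 to -103, -193 to -186, -110 to -103 and -139 to -132 from the start. The match in Trib3, TTACATCA, lay inside the transcribed part, at bases 15 to 22. These matches are descriptions of the sequence, and no binding was measured here. The genes were listed as effectors that ATF4 drives, so the share with the first motif describes the list. The windows of Atf4, Atf5, Ddit3, Sesn2 and Gdf15 held none of these motifs, which says nothing about elements elsewhere in those genes.

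**Figure D1:**
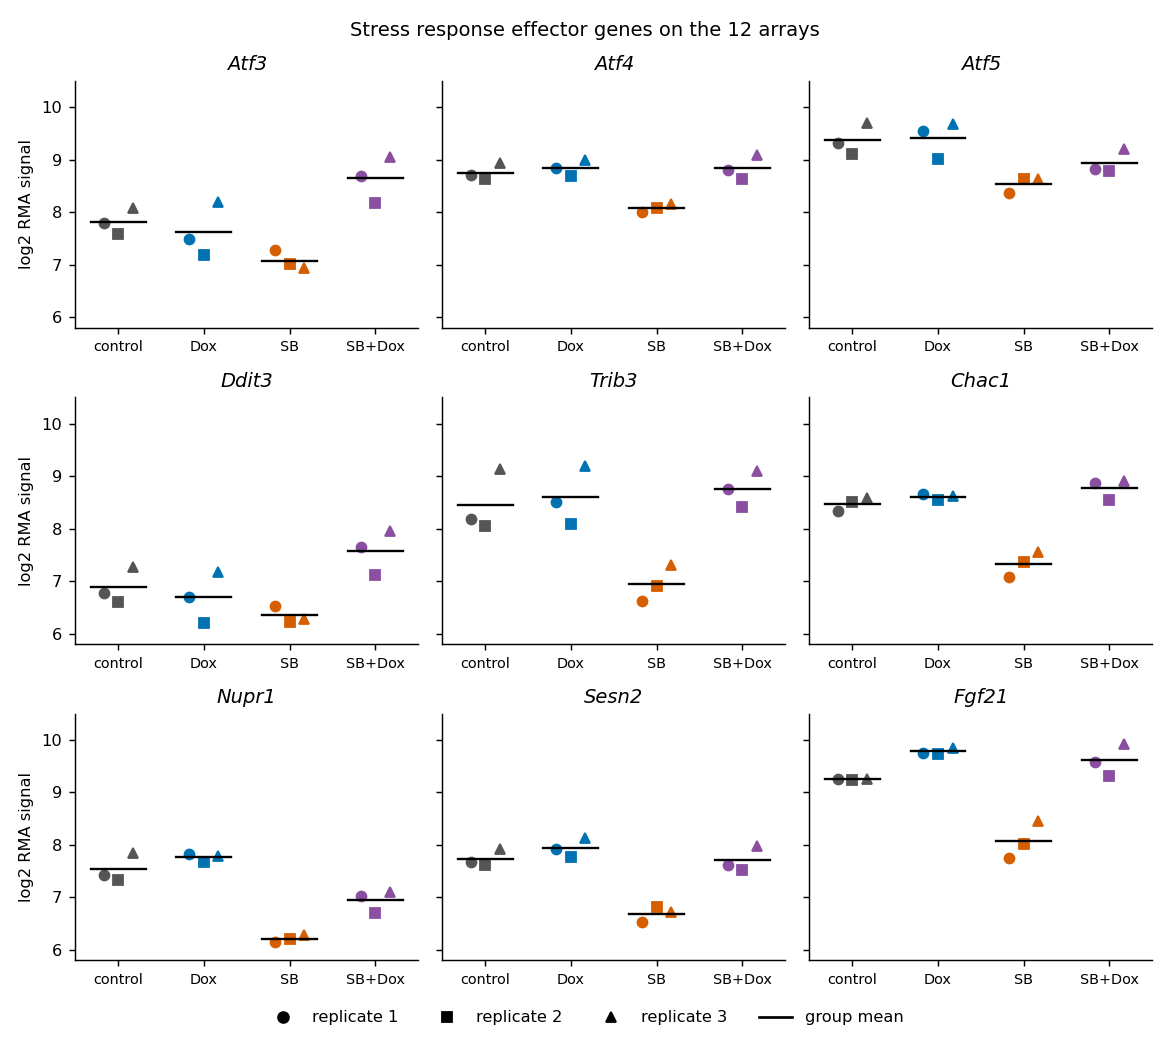
Log2 RMA signal (y axis) of the 9 measured effectors on each array, by group (x axis), with point shapes for the replicate number and a line at the group mean. In every panel the 3 SB arrays lie below the 3 control arrays and below the 3 SB+Dox arrays.

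SB against control asks what SB203580 did in cells without doxycycline, and p38 activity itself was not measured on these arrays. All 9 measured effectors were lower in SB on all 3 arrays, and 7 of the 9 fell by the test (limma, adjusted p under 0.05), namely Atf4, Atf5, Trib3, Chac1, Nupr1, Sesn2 and Fgf21. Over all clusters 6.38% were called in this comparison, 3.87% as lower, and 9.72% were lower with no overlap of the arrays. The median change of the 9 was -1.05 on the log2 scale, between -1.51 and -0.53, beside a median of 0.03 over all clusters. The choice of the genes was made with results of these arrays known, so this count describes them and is not an independent test of the list.

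Atf4, the factor that drives the response, had log2 values of 8.71, 8.63 and 8.93 in control, 8.85, 8.7 and 8.99 in Dox, 8.01, 8.09 and 8.15 in SB and 8.8, 8.63 and 9.09 in SB+Dox. The SB arrays stood alone at the low end, and the other groups overlapped. Atf4 fell 1.6-fold in SB against control (log2 change -0.67, SE 0.12, adjusted p = 0.00379) and rose 1.69-fold in SB+Dox against SB (log2 change 0.75, SE 0.12, adjusted p = 0.00188). In SB+Dox it differed from Dox by -0.01 (95% interval -0.27 to 0.26) and from control by 0.08 (-0.18 to 0.34), neither of which passed the test.

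Atf5 encodes a bZIP factor whose message, like that of Atf4, is translated better when eIF2α is phosphorylated. Its log2 values were 9.31, 9.11 and 9.7 in control, 9.54, 9.01 and 9.68 in Dox, 8.37, 8.63 and 8.63 in SB and 8.83, 8.78 and 9.21 in SB+Dox. The SB arrays were again the lowest, and the SB+Dox arrays lay above them and overlapped the control and Dox arrays. Atf5 fell 1.78-fold in SB against control (log2 change -0.83, SE 0.18, adjusted p = 0.0113), which no longer passed with control replicate 3 left out (-0.67, adjusted p = 0.0576) or SB replicate 1 left out (-0.74, adjusted p = 0.0541). It was the single measured effector whose change in SB+Dox against SB did not pass the test, at 0.4 (95% interval 0.01 to 0.78, adjusted p = 0.221).

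Atf3 encodes a stress-induced member of the ATF family that can repress or activate its targets, and Ddit3 encodes CHOP, a C/EBP-family partner that p38 can phosphorylate. Atf3 had log2 values of 7.8, 7.59 and 8.08 in control, 7.5, 7.19 and 8.19 in Dox, 7.29, 7.02 and 6.93 in SB and 8.69, 8.18 and 9.06 in SB+Dox. Ddit3 had log2 values of 6.78, 6.6 and 7.26 in control, 6.7, 6.2 and 7.17 in Dox, 6.53, 6.23 and 6.28 in SB and 7.64, 7.12 and 7.96 in SB+Dox. For both genes the group means ran from SB through Dox and control to SB+Dox.
The changes in SB against control, -0.75 for Atf3 (adjusted p = 0.0839) and -0.53 for Ddit3 (adjusted p = 0.264), did not pass the test, although the arrays of the 2 groups did not overlap. Without Dox replicate 3, which enters the shared estimate of the spread, the change of Atf3 passed (-0.75, adjusted p = 0.0346), as it did with array weights (-0.72, adjusted p = 0.0399). In SB+Dox against SB both rose, Atf3 by 2.96-fold (log2 change 1.56, SE 0.24, adjusted p = 0.0012) and Ddit3 by 2.34-fold (log2 change 1.23, SE 0.24, adjusted p = 0.00561).

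Trib3 encodes a pseudokinase that ATF4 and CHOP induce and that damps their activity. Its log2 values were 8.18, 8.04 and 9.14 in control, 8.5, 8.09 and 9.2 in Dox, 6.62, 6.91 and 7.3 in SB and 8.75, 8.42 and 9.1 in SB+Dox. The SB arrays lay below all the others, which overlapped among themselves. Trib3 had the lowest change of the 9 in SB against control, 2.84-fold lower (log2 change -1.51, SE 0.3, adjusted p = 0.00617), and the highest in SB+Dox against SB, 3.51-fold higher (log2 change 1.81, SE 0.3, adjusted p = 0.0019). Replicate 3 was the highest array in each of the 4 groups, and Trib3 had the widest standard error of the 9 genes.

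Chac1 encodes an enzyme that breaks down glutathione. Its log2 values were 8.34, 8.5 and 8.58 in control, 8.65, 8.55 and 8.62 in Dox, 7.08, 7.36 and 7.56 in SB and 8.86, 8.55 and 8.9 in SB+Dox. The SB arrays lay below all the others with no overlap. Chac1 fell 2.21-fold in SB against control (log2 change -1.14, SE 0.13, adjusted p = 8e-05) and rose 2.7-fold in SB+Dox against SB (log2 change 1.43, SE 0.13, adjusted p = 3.95e-05).

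Nupr1 encodes a small chromatin-associated stress protein. Its log2 values were 7.43, 7.34 and 7.85 in control, 7.83, 7.68 and 7.79 in Dox, 6.15, 6.21 and 6.29 in SB and 7.03, 6.71 and 7.1 in SB+Dox. The SB arrays were lowest, the SB+Dox arrays next, and the control and Dox arrays overlapped at the top. Nupr1 fell 2.51-fold in SB against control (log2 change -1.33, SE 0.13, adjusted p = 3.36e-05) and rose 1.66-fold in SB+Dox against SB (log2 change 0.73, SE 0.13, adjusted p = 0.00364).
Nupr1 was the 1 effector called as lower with both agents than without the inhibitor, by 1.77-fold against Dox (log2 change -0.82, SE 0.13, adjusted p = 0.000763). Against control it was 1.51-fold lower (log2 change -0.59, SE 0.13, adjusted p = 0.0154). The latter did not pass with control replicate 3 left out (-0.44, adjusted p = 0.0625) or with SB+Dox replicate 2 left out (-0.48, adjusted p = 0.0882).

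Sesn2 encodes a leucine-binding protein that restrains the growth kinase complex mTORC1. Its log2 values were 7.68, 7.61 and 7.93 in control, 7.93, 7.77 and 8.14 in Dox, 6.54, 6.81 and 6.72 in SB and 7.62, 7.52 and 7.98 in SB+Dox. The SB arrays lay below all the others, which overlapped. Sesn2 fell 2.07-fold in SB against control (log2 change -1.05, SE 0.14, adjusted p = 0.000303) and rose 2.02-fold in SB+Dox against SB (log2 change 1.01, SE 0.14, adjusted p = 0.000601).

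Fgf21, the secreted factor that could be measured, had log2 values of 9.26, 9.24 and 9.25 in control, 9.76, 9.73 and 9.85 in Dox, 7.75, 8.02 and 8.45 in SB and 9.58, 9.32 and 9.93 in SB+Dox. Control arrays were nearly level, SB arrays were lowest, and both groups with doxycycline lay above control on every array. Fgf21 fell 2.27-fold in SB against control (log2 change -1.18, SE 0.16, adjusted p = 0.000442) and rose 2.9-fold in SB+Dox against SB (log2 change 1.54, SE 0.16, adjusted p = 0.000102). Its change in Dox against control, 0.53 (SE 0.16, adjusted p = 0.0815), did not pass the test, but passed without SB replicate 1 (adjusted p = 0.0458), SB replicate 3 (0.0239) or SB+Dox replicate 3 (0.048), at 0.53 each time, and with array weights (0.52, adjusted p = 0.0198).

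The effect of doxycycline, the agent that switches on the Myog transgene, in the presence of SB203580 is the subject of SB+Dox against SB. Of the 9 effectors 8 rose and 0 fell, beside 7.11% of all clusters called, 4.4% as higher. All 9 lay above the SB arrays on all 3 SB+Dox arrays, which held for 12.8% of all clusters. The split over all clusters was 959 higher and 591 lower, or 1302 higher and 415 lower after median centring of the arrays. The median change of the 9 was 1.23, between 0.4 and 1.81, beside -0.04 over all clusters. This comparison shares the SB arrays with SB against control, so a low reading of those arrays enters both. The 8 genes called as higher passed the test in each of the 19 alternatives that were run, leaving out SB replicates 1, 2 and 3 in turn among them.

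The comparison of SB+Dox with control uses none of the SB arrays for its means, and it shows how the levels with both agents stood beside control. Of the 9 effectors 1 was called, Nupr1 as lower, beside 5.26% of all clusters called and 2.42% called as lower. As a share of the fall from control to SB, the rise from SB to SB+Dox was 55.2% for Nupr1, 96.5% for Sesn2, 112% for Atf4, 120% for Trib3, 126% for Chac1 and 130% for Fgf21. Unlike the comparison itself, these shares use the SB mean in both the fall and the rise, so a low reading of the SB arrays enters both. No interval was computed for them. No share is given for Atf3, Ddit3 or Atf5, for which the fall or the rise did not pass the test. The SB+Dox means differed from control by 0.82 for Atf3 (95% interval 0.31 to 1.32, adjusted p = 0.0632), 0.7 for Ddit3 (0.19 to 1.21, adjusted p = 0.127) and -0.43 for Atf5 (-0.82 to -0.05, adjusted p = 0.24). None of the 3 passed the test. With array weights Atf3 (0.77, adjusted p = 0.0267) and Ddit3 (0.7, adjusted p = 0.0427) passed, and the change of Atf3 also passed with an eBayes trend (0.82, adjusted p = 0.0458) and without Dox replicate 2 (0.82, adjusted p = 0.0443), Dox replicate 3 (0.82, adjusted p = 0.0256) or SB+Dox replicate 2 (1.05, adjusted p = 0.0265).

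**Figure D2:**
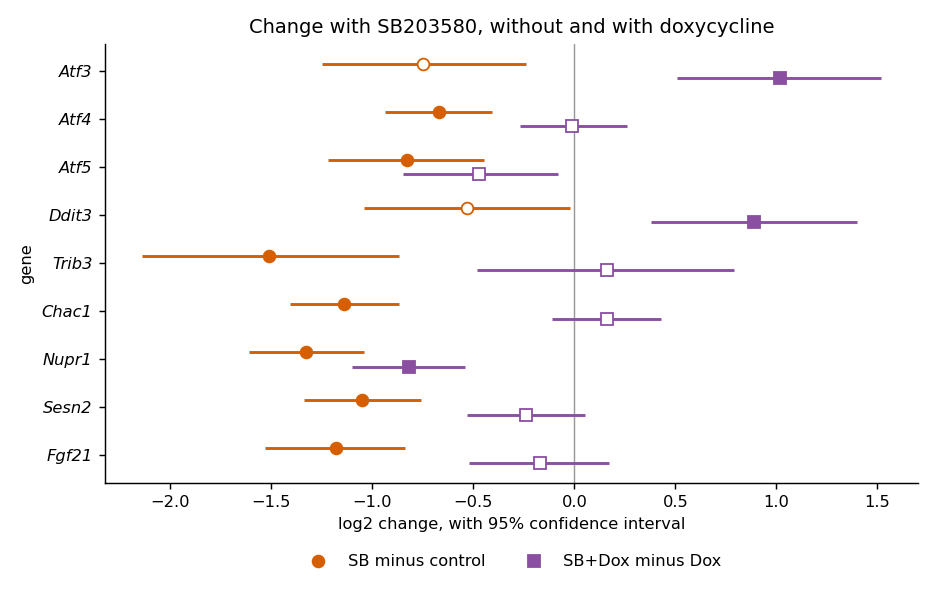
Log2 change with SB203580 (x axis) for each effector, without doxycycline (circles, SB minus control) and with it (squares, SB+Dox minus Dox), with 95% confidence intervals. Filled symbols passed the test at adjusted p under 0.05 and open symbols did not, and the circles all lie below 0 while the squares lie on both sides.

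SB+Dox against Dox asks what the inhibitor did in cells that also received doxycycline. Of the 9 effectors 2 rose, 1 fell and 6 did not pass, beside 10.4% of all clusters called, 6.97% as higher and 3.43% as lower. The median change was -0.01, between -0.82 and 1.02, and the median over all clusters was -0.03. Atf3 rose 2.02-fold (log2 change 1.02, SE 0.24, adjusted p = 0.0107) and Ddit3 rose 1.85-fold (log2 change 0.89, SE 0.24, adjusted p = 0.0255), though for both genes 1 Dox array reached into the range of the SB+Dox arrays. The call of Atf3 was lost without Dox replicate 2 (0.8, adjusted p = 0.0581) or SB+Dox replicate 3 (0.81, adjusted p = 0.0576). That of Ddit3 was lost without Dox replicate 1 (0.89, adjusted p = 0.0656), Dox replicate 2 (0.64, adjusted p = 0.125), SB+Dox replicate 1 (0.85, adjusted p = 0.0792) or SB+Dox replicate 3 (0.69, adjusted p = 0.122). Nupr1, described above, was the 1 that fell. Trib3 changed by 0.16 (95% interval -0.48 to 0.79), Chac1 by 0.16 (-0.11 to 0.43), Fgf21 by -0.17 (-0.52 to 0.17) and Sesn2 by -0.24 (-0.53 to 0.05), none of which passed. Atf5 changed by -0.47 (adjusted p = 0.131) and passed without Dox replicate 2 (-0.67, adjusted p = 0.0248) or with array weights (-0.52, adjusted p = 0.0344).

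Dox against control asks what doxycycline did without the inhibitor. In limma 0 of the 9 effectors passed, beside 5.31% of all clusters called, and 1 of the 9, Fgf21, had an unadjusted p under 0.05. The changes ran from -0.2 for Atf3 to 0.53 for Fgf21, with a median of 0.13. The upper ends of the 95% intervals, 0.35 for Atf4, 0.4 for Chac1, 0.5 for Sesn2 and 0.78 for Trib3 among them, lay below the estimated rise with the inhibitor for 8 of the 9. The exception was Atf5 (0.42 against 0.4). This sets an interval beside an estimate without the error of that estimate, and for Nupr1 the intervals overlapped (-0.06 to 0.51 and 0.45 to 1.01). The difference between the changes was therefore tested directly, as given next.

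**Figure D3:**
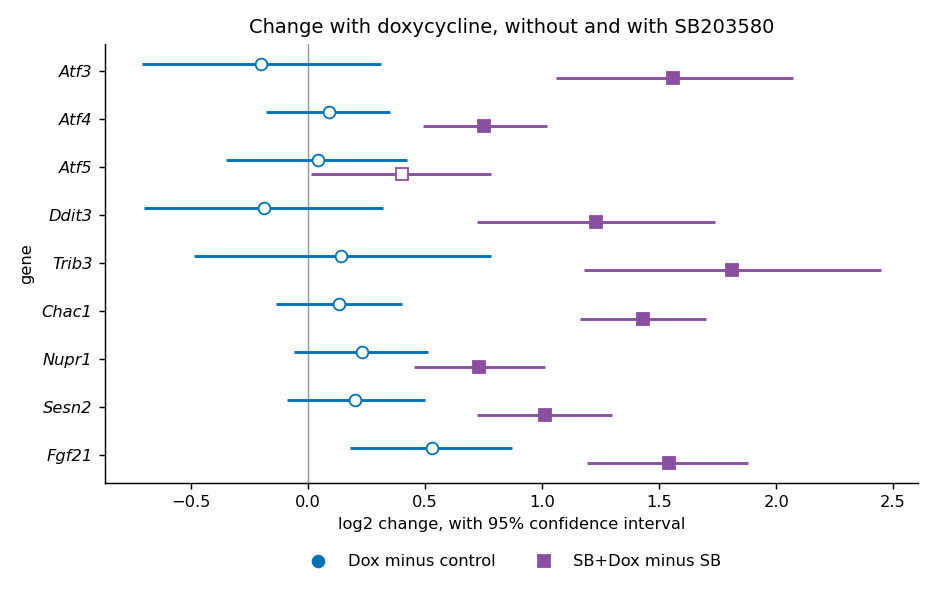
Log2 change with doxycycline (x axis) for each effector, without SB203580 (circles, Dox minus control) and with it (squares, SB+Dox minus SB), with 95% confidence intervals. Filled symbols passed the test at adjusted p under 0.05, which no circle did and 8 of the 9 squares did.

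The difference between the doxycycline changes with and without the inhibitor was tested directly as the interaction. It was positive for all 9 effectors, with a median of 1.01 between 0.36 and 1.76, beside a median of -0.03 over all clusters. Atf3 and Chac1 passed the test, 2 of 9, where 0.895% of all clusters were called and 0.725% called as higher. In counts this was 158 higher and 37 lower, or 59 and 25 after quantile normalisation. Chac1 had an interaction of 1.3 (SE 0.18, adjusted p = 0.00695), and it passed without any 1 array (adjusted p from 0.00234 to 0.027) but not when every cluster of the table was tested (adjusted p = 0.0777). Atf3 had 1.76 (SE 0.34, adjusted p = 0.0275). That call was lost after quantile normalisation (1.69, adjusted p = 0.0639), with every cluster tested (1.76, adjusted p = 0.143) and without control replicate 1 (1.78, adjusted p = 0.0681) or 3 (1.64, 0.0662), Dox replicate 1 (1.7, 0.063) or 2 (1.55, 0.0707), SB replicate 1 (1.87, 0.0549) or 2 (1.73, 0.0866), and SB+Dox replicate 1 (1.74, 0.0627) or 3 (1.56, 0.0714). Fgf21 (1.01, adjusted p = 0.0553), Ddit3 (1.42, 0.0706), Sesn2 (0.81, 0.0748), Trib3 (1.67, 0.0897) and Atf4 (0.67, 0.105) did not pass, nor did Nupr1 (0.5, 0.292) or Atf5 (0.36, 0.631). Which of the 9 passed depended on the settings: 4 did without Dox replicate 3 or without SB+Dox replicate 2, 5 with an eBayes trend and 6 with array weights. Calls over all 21789 clusters moved as well, from 195 in the main fit. They were 123 without Dox replicate 3, 93 without SB+Dox replicate 2, 259 with the trend and 678 with array weights. With a replicate block the count of effectors was higher still, as given with the alternatives below, although the labels state no pairing of the arrays.

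Most genes listed as ATF4 targets of amino acid supply moved in the same groups. ATF4 protein and its binding were not measured. The lists of ATF4 targets were written with earlier results of these arrays known, so the counts describe them. Of 31 measured genes for amino acid supply (transporters, synthetic enzymes and transfer RNA synthetases) 23 fell and 0 rose in SB against control, with a median of -0.7. In SB+Dox against SB 27 rose and 0 fell, with a median of 0.95. The shares of all clusters called, 6.38% and 7.11% in these comparisons, are also the background for the lists that follow. Slc3a2, the heavy chain shared by several amino acid exchangers, fell 1.79-fold and then rose 2.05-fold (adjusted p = 8.32e-05 and 4.02e-05). The arginine transporter gene Slc7a1 fell 2.34-fold and the branched-chain aminotransferase gene Bcat1 2.27-fold (adjusted p = 0.000124 and 0.00055), and Bcat1 rose 2.77-fold with doxycycline (adjusted p = 0.000217). In the interaction 10 of the 31 passed, all as higher, with Slc3a2 at 0.82 (adjusted p = 0.015) and Asns, asparagine synthetase, at 1.03 (adjusted p = 0.0364). In Dox against control 0 of the 31 passed in limma, while 8 had an unadjusted p under 0.05.

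Of 16 other ATF4 targets 8 fell and 0 rose in SB against control, and 9 rose and 0 fell in SB+Dox against SB. Herpud1, a protein of endoplasmic reticulum-associated degradation, fell 2.17-fold (adjusted p = 0.000154) and rose 2.09-fold (adjusted p = 0.000413). Vegfa, the angiogenic growth factor, fell 1.82-fold and rose 2.05-fold (adjusted p = 0.000346 and 0.000193). Eif4ebp1, a repressor of cap-dependent translation, fell 1.53-fold and rose 1.83-fold (adjusted p = 0.0046 and 0.000538). Several of these genes, Herpud1 among them, also belong to other lists below.

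Among genes that set eIF2α phosphorylation or work with eIF2, the counts called were small. The 18 measured were kinases and their regulators, phosphatase subunits, and subunits of eIF2 and of its exchange factor eIF2B. Of the 18, 2 fell in SB against control, where 3.87% of all clusters were called lower. Eif2b3 fell 1.26-fold and Eif2b2 1.28-fold (adjusted p = 0.0386 and 0.0497). Both encode eIF2B subunits, which do not set the phosphorylation. In SB+Dox against SB 2 of the 18 rose, Eif2b3 by 1.44-fold (adjusted p = 0.00245) and Ppp1r15a (GADD34, the stress-induced phosphatase subunit and itself an ATF4 target) by 2.4-fold (adjusted p = 0.0222). Phosphorylation itself was not measured. Of 27 bZIP partners and other ATF/CREB factors 4 fell and 1 rose in SB against control. Creb3l1, a membrane-bound factor of the secretory pathway, fell 1.84-fold (adjusted p = 0.000179) and Cebpg, a C/EBP partner of ATF4, fell 1.45-fold (adjusted p = 0.0232). Cebpg rose 1.47-fold in SB+Dox against SB (adjusted p = 0.0176), while Creb3l1 had log2 means of 8.22 in SB and 8.13 in SB+Dox.

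Chaperones and targets of other stress sensors had medians near 0 in SB against control, at -0.12 for 22 endoplasmic reticulum genes and -0.08 for 10 mitochondrial ones. In SB+Dox against SB these medians were 0.13 and 0.29, beside -0.04 over all clusters. Of the 22 endoplasmic reticulum genes 2 fell, Herpud1, which is also on the list of ATF4 targets, and Xbp1, the factor made active by the sensor IRE1, which was 1.29-fold lower (adjusted p = 0.0186). In SB+Dox against SB 7 of the 22 rose, where 4.4% of all clusters were called higher, among them Sel1l, a scaffold of protein degradation, by 2.11-fold and Hspa5, the chaperone BiP, by 1.62-fold (adjusted p = 0.000878 and 0.01). Of the 10 mitochondrial chaperones and proteases 1 fell in SB against control, the chaperone gene Hspa9 (1.29-fold lower, adjusted p = 0.039), and 4 rose in SB+Dox against SB, with the protease gene Lonp1 2.09-fold higher (adjusted p = 0.002). Of 16 p53 targets, a group that shares regulation with Sesn2 and Atf3, 3 fell and 0 rose in SB against control and 4 rose and 0 fell in SB+Dox against SB. The kinase gene Plk2 was 1.57-fold lower and then 2.6-fold higher (adjusted p = 0.00326 and 2.71e-05).

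**Figure D4:**
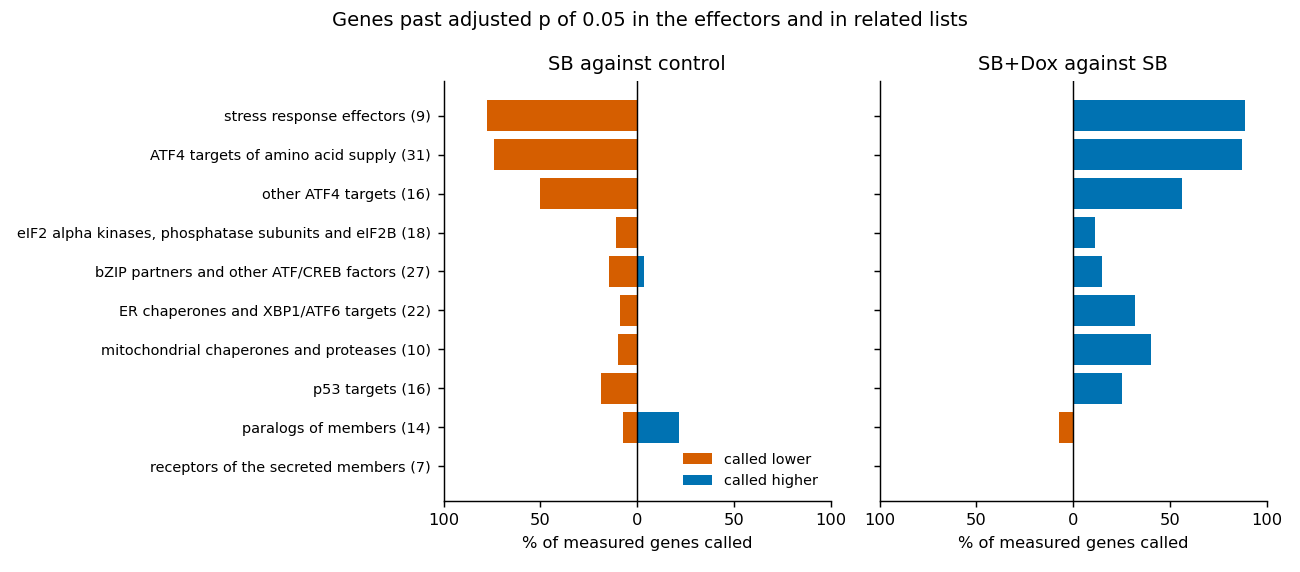
Share of measured genes called lower (left of 0) or higher (right of 0) at adjusted p under 0.05 in the effectors and 9 related lists, for SB against control and SB+Dox against SB, with the number measured in brackets. The effectors and the genes of amino acid supply have the longest bars in both panels, and some genes belong to more than 1 list.

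Genes listed as paralogs of the effectors were counted as well. The list also holds Ddit4 and Ddit4l, which share part of a name with Ddit3 but are not of its family. Of the 14 measured genes on it 1 fell, Ddit4, and 3 rose in SB against control, where 6.38% of all clusters were called. Sesn3, a second sestrin, rose 1.88-fold (adjusted p = 0.0038) where Sesn2 fell, and Trib2, a relative of Trib3, rose 1.42-fold (adjusted p = 0.0153) where Trib3 fell. Gdf11, a growth factor of the TGF-β family, rose 1.81-fold (adjusted p = 0.0428), and Ddit4, an mTORC1 inhibitor that is itself an ATF4 target, fell 1.4-fold (adjusted p = 0.0138). In SB+Dox against SB none of these 4 passed, and of the 14 only Ddit4l did, 1.34-fold lower (adjusted p = 0.0442). Of 7 measured receptor genes for FGF21 and GDF15 in limma 0 passed in SB against control or in SB+Dox against SB, where 1 and 2 had an unadjusted p under 0.05. Fgfr3 had a level 1.69-fold lower when SB203580 was added to doxycycline (adjusted p = 0.00399).

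The 9 effectors were also compared with each other over the 12 arrays, as a description in which the arrays share groups and normalisation. The 36 pairs had Pearson r between 0.27 and 0.98 with a median of 0.8, and 26 were above 0.7. Atf3 and Ddit3 tracked each other at 0.98, and Atf4 tracked Sesn2 at 0.98 and Trib3 at 0.97, while Nupr1 and Ddit3 had the lowest value, 0.27. After the group means were removed all 36 values were still above 0, between 0.24 and 0.97 with a median of 0.74, so the genes also varied together among replicates. Replicate 3 held the highest value in 29 of the 36 sets of 1 gene and 1 group, and replicate 2 the lowest in 27. Mean deviations from the group mean over the 9 genes were 0.27, 0.26, 0.11 and 0.28 for replicate 3 of control, Dox, SB and SB+Dox. What the same-numbered arrays share was not tested.

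**Figure D5:**
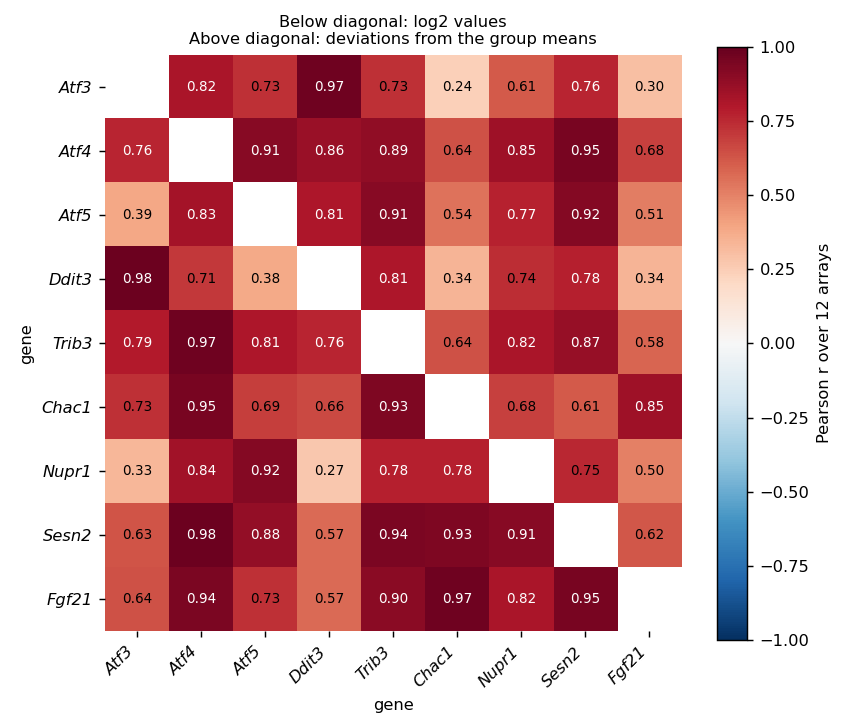
Pearson correlation of each pair of effectors over the 12 arrays, from log2 values (below the diagonal) and from deviations from the group means (above it). The pair Atf3 and Ddit3 is high on both sides, at 0.98 and 0.97, and no square is below 0.

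Outside the list, the genes most like each effector over the 12 arrays were found by the highest Pearson r, again as a description. The 27 places went to 23 genes, with r from 0.949 to 0.99, and 8 of the 23 were on the lists of ATF4 targets above. Those lists held 31 and 16 measured genes, of 19938 genes before any were left out. They were written with earlier results of these arrays known, so the overlap is not an independent test. Atf4 was closest to the glycine transporter gene Slc6a9 (0.985), Vmp1 (0.984) and Yars (0.977), and Sesn2 to Slc6a9 (0.976), Slc7a11 (0.976) and Yars (0.974). Trib3 was closest to Cth (0.99), Pck2 (0.988) and Ero1a (0.984). Chac1 was closest to the synthetase gene Cars (0.983), Eif4ebp1 (0.979) and Gars (0.976), and Fgf21 to Iars (0.987), Cars (0.985) and Hax1 (0.978). None of the nearest genes of the remaining 4 effectors was on those lists. Atf3 and Ddit3 shared the nearest gene, Dhrs9 (0.974 and 0.973), followed by Rnd1 (0.961) and Tmem74 (0.949) for Atf3 and by Stard5 (0.965) and Lmo4 (0.957) for Ddit3. Nupr1 was closest to the cyclooxygenase gene Ptgs2 (0.983), Clic4 (0.976) and Tmbim1 (0.973), and Atf5 to Wipi2 (0.959), Slc40a1 (0.959) and Chmp4b (0.952).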

How the data were processed

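The authors deposited 1 value table of log2 RMA signals for 35557 transcript clusters on 12 arrays, with 0 missing values and all 12 columns belonging to a sample. RMA was run in Affymetrix Expression Console, per the submitters' processing notes, at a version not stated there. Clusters were named from the platform annotation: 21789 carried 1 symbol and were tested, 1621 carried several and 12147 none. Values ran from 0.5 to 13.17. Arrays have no depth, no background level was measured, and 3 arrays per group limit the precision.

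A limma 3.58.1 model (R 4.3.3) with 1 mean per group was fitted to all 12 arrays, with eBayes (8 residual and 6.56 prior degrees of freedom). P-values were adjusted by the Benjamini-Hochberg method over the 21789 clusters within each comparison, and called under 0.05. The method was tested on simulated data. The effectors, related lists and tests were chosen with earlier results of these data known. Up to 4 called genes per list, those with the smallest adjusted p among genes whose groups did not overlap, and 3 nearest genes per effector could be named. Same-numbered arrays were checked for pairing by correlating deviations from the group means. In SB and SB+Dox the 3 values were 0.44, 0.19 and 0.49, all over 0.1. The other 5 pairs of groups had at least 1 value at or under 0.1. A replicate block was also fitted, to all 12 arrays and for every comparison. It changed no effector's call in SB+Dox against SB but changed calls in each of the other comparisons, as given below. Other alternatives were quantile normalisation, median centring, leaving out clusters under the 25th percentile, an eBayes trend, array weights, every cluster tested and leaving out each array.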

Additional observations from a re-analysis of the deposited data

Results flagged for a closer look

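The response to doxycycline differed between cells with and without SB203580 by the direct test of the difference for 2 effectors, Atf3 and Chac1. For Atf3 the doxycycline change was 1.56 with the inhibitor and -0.2 without it, a difference of 1.76 (adjusted p = 0.0275 in limma, 3 arrays per group), and this call was lost in 10 of 19 alternatives, 8 of which left out 1 array (adjusted p from 0.0549 to 0.0866 in those 8). For Chac1 it was 1.43 and 0.13, a difference of 1.3 (adjusted p = 0.00695), which was lost in 1 of the 19, with every cluster tested (adjusted p = 0.0777). All 3 SB+Dox arrays lay above all 3 SB arrays for both genes.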

How the results depend on the processing

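The log2 change of every effector was recomputed under 19 alternatives, 12 of which left out 1 array. Of 1026 such values 963 kept their side of the threshold, 25 lost a call, 38 gained one and 0 called values changed sign. In SB against control 6 of the 7 calls and in SB+Dox against SB all 8 held in every alternative, and the exception was Atf5. Leaving out 1 array gave 6 to 8 called effectors in SB against control, 8 to 8 in SB+Dox against SB, 1 to 3 in SB+Dox against Dox, 0 to 1 in Dox against control, 0 to 2 in SB+Dox against control and 1 to 4 in the interaction. With every cluster of the table tested, 1 effector in place of 3 was called in SB+Dox against Dox, 0 in place of 1 in SB+Dox against control and 0 in place of 2 in the interaction. With the replicate block the counts were 1 in place of 0 in Dox against control (Fgf21), 3 in place of 1 in SB+Dox against control and 7 in place of 2 in the interaction, where Atf4 (adjusted p = 0.0184), Ddit3 (0.00502), Trib3 (0.00142), Sesn2 (0.0158) and Fgf21 (0.0158) were added. With array weights they were 1, 3 and 6. In SB against control the block also brought Atf3 (adjusted p = 0.0155) and Ddit3 (adjusted p = 0.0451) past the threshold, and in SB+Dox against Dox it did so for Atf5 (adjusted p = 0.0303). An eBayes trend gave 2 in SB+Dox against control and 5 in the interaction, and quantile normalisation gave 1 in the interaction. In each array of SB and SB+Dox, and of Dox and SB+Dox, the best match in the other group was the array of the same number (6 of 6 each), a hint from the data and not from the design.

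Over all clusters, array weights gave 2794 calls in place of 1390 in SB against control, 3076 in place of 1550 in SB+Dox against SB, 1831 in place of 1156 in Dox against control, 1935 in place of 1146 in SB+Dox against control and 678 in place of 195 in the interaction. Testing every cluster gave 876 for SB against control, 696 for SB+Dox against control and 6 for the interaction. The interaction had 421 calls with the block, 259 with an eBayes trend and 84 after quantile normalisation. The block gave 1781 calls in SB against control and 2628 in SB+Dox against Dox. It gave 1435 in Dox against control and 1468 in SB+Dox against control, where the trend gave 1343. Leaving out 1 array gave 779 to 1644, 724 to 2521, 1614 to 2511, 744 to 1305, 644 to 1351 and 27 to 352 calls in the 6 comparisons in the order used above. The cause of these shifts was not tested. The alternative of averaging several clusters of a gene was not run, because each measured effector had 1. Signal over background was not measured, so a fold between a dim and a bright group may be understated.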

Other observations

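Of the 14 measured genes listed as paralogs of the effectors, 5 rose and 1 fell in SB+Dox against Dox. Over all clusters 6.97% were called higher and 3.43% lower in that comparison. The 1 that fell was Ddit4, which is not of the family of Ddit3. Sesn3 was 2.11-fold higher (adjusted p = 0.000596), Gdf11 2.16-fold (adjusted p = 0.00563) and Trib1 1.58-fold higher (adjusted p = 0.0047), while Sesn2 and Trib3 did not pass in that comparison (log2 changes of -0.24 and 0.16). The log2 mean of Sesn3 was highest with SB203580 alone, at 7.14, and lowest with doxycycline alone, at 5.76, with 6.23 for control and 6.83 for both agents.

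The ATF4 target lists held 33 and 16 genes that are not effectors. Promoter windows were looked up by the listed symbol alone, so a gene stored under another symbol would be missed. Windows were found for 36 of the genes, and 11 of the 36 (30.6%) held TGATGNAA on either strand, against 4.51% of all genes in the table. TGACGTCA was present in 2 of the 36. These genes were listed as ATF4 targets from general knowledge, so the share is a description of the lists and no binding was measured.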
